A study of Mus musculus with 8 samples.

Results

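The 10 genes described here belong to the circadian clock and to the PAR bZIP factors, a small family of transcription factors that the clock drives. They were Per1, Per2, Per3, Nr1d1, Nr1d2, Dbp, Tef, Hlf, Bhlhe40 and Clock. Each was taken as the probe set whose single gene symbol in the array annotation was that gene, and each had 1 probe set, so 10 of 22206 probe sets that were not controls were followed (19572 of these carried 1 symbol). RNA came from the dorsal skin of male mice of the inbred strain C3H that were 7 weeks old, had 7 days to acclimatise, were depilated, and were then treated on the skin every day for 20 days. Mice were placed at random in 4 groups of 8, and each group gave 2 Clariom S Mouse microarrays: Milli-Q water as control, minoxidil (a drug used on the scalp against hair loss), tieghemelin, and maslinic acid, a plant triterpene acid. The descriptions give 1% for each compound, but the source name of minoxidil array 2 gives 2%. The control titles name these arrays as the control of tieghemelin and maslinic acid. The labels do not say which or how many mice gave each array, nor the time of day at which skin was taken, so p-values cover only how far arrays of one group lie apart, and part of that may be technical.

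In mammalian cells CLOCK and its partner ARNTL (BMAL1) bind E-box sequences and turn on the Period, Cryptochrome, REV-ERB (Nr1d1, Nr1d2) and PAR bZIP (Dbp, Tef, Hlf) genes. The PER and CRY proteins then block CLOCK and ARNTL, while the REV-ERB receptors repress Arntl, Npas2, Nfil3 and Cry1, and DBP, TEF and HLF act on D-box sequences against the repressor NFIL3. The Period, REV-ERB and PAR bZIP genes therefore peak at about the opposite time of day from Arntl and its neighbours, and in skin this clock runs in keratinocytes, fibroblasts and the hair follicle and is tied to the hair cycle.

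RefSeq promoter sequence on the GRCm38.p6 build was at hand for 8 of the 10 genes, as 12 windows of 250 bases that end just before a start site. Those of Per1, Per3 and Nr1d1 are printed because each holds a clock element and because these 3 genes read differently in the arrays, as given further on. Capitals mark the element: an E-box (CACGTG) in Per1 at the first of its start sites, at chr11:69098699-69098948 on the plus strand; D-boxes (TTATGTAA) in Per3, at chr4:151044666-151044915 on the minus strand; and an E′-box (CACGTT, seen here as its reverse complement) in Nr1d1, at chr11:98775378-98775627 on the minus strand. The first start site of Per1 lies inside the span of the RefSeq gene given further on. Each is written 5′ to 3′ along the gene.
Per1: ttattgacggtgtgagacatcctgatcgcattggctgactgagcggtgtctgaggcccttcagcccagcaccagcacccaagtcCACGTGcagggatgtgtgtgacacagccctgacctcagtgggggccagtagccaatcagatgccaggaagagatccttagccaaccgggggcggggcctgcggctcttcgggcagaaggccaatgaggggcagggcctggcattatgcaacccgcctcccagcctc
Per3: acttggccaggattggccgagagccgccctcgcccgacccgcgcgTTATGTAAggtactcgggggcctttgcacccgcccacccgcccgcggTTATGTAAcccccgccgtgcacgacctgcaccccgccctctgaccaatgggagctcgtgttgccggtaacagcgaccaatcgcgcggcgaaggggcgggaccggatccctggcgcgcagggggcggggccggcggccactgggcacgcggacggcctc
Nr1d1: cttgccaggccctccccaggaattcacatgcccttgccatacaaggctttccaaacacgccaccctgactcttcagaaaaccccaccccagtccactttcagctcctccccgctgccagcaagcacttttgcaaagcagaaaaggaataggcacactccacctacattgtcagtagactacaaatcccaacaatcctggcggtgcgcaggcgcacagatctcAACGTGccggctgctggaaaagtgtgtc
The E-box of Per1 begins 166 bases before the start, the D-boxes of Per3 begin 205 and 158 bases before it, and the E′-box of Nr1d1 begins 28 bases before it. Both start sites of Tef also had an E-box, 127 and 138 bases before the start, and Hlf had a cyclic AMP element (TGACGTCA) 9 bases before its start. Both strands were searched. Among 32851 RefSeq windows of the same length, 6.02% held CACGTG, 3.85% held CACGTT, 0.931% held a D-box (TTATGTAA or TTACGTAA) and 1.55% held TGACGTCA. No window of Dbp or Clock held any of these letters. A match is a description of the sequence and not a measured binding site.

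Values are log2 levels per probe set, and a difference of 1 is a factor of 2 in level; levels of different genes cannot be compared on this array. Control array 1 stood apart from all the others: its values over all probe sets correlated at r = 0.518 to 0.538 with the other arrays, whereas the other 7 correlated at 0.901 to 0.966 with one another. Results that use the controls are therefore given with and without it; without it the control is 1 array, assumed to vary like the arrays of the treated groups. As a reference for dim signals, a background median was taken over 23 antigenomic probe sets, and it was 7.75 and 7.61 on the control arrays, 7.51 and 7.33 with minoxidil, 7.02 and 6.97 with tieghemelin, and 6.96 and 7.08 under maslinic acid; it is not a detection call, since single background sets ranged from 4.03 to 9.09. Skin markers checked the tissue label. All 7 basal keratinocyte markers lay above that median on both tieghemelin and both maslinic acid arrays, but 3 of 7 did on control array 1, where 2 of 6 fibroblast markers did as well, against 6 of 6 on control array 2. Of 8 hair matrix and shaft markers 3 or 4 lay above that median on each array, and of 5 differentiated keratinocyte markers 4 did. The markers of skeletal muscle, another tissue that a skin sample can hold, are taken up further on.

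The Period genes Per1 and Per2, which encode the repressors at the core of the clock, read low on both control arrays and higher on all 6 treated arrays. Per1 (chr11:69095108-69109965, GRCm38.p6) read 6.17 and 6.05 on the control arrays, 7.28 and 7.87 with minoxidil, 7.61 and 6.99 with tieghemelin, and 7.77 and 7.96 under maslinic acid. The lowest treated array stood well above both controls. Per2 (chr1:91415977-91459351) read 6.21 and 6.23 in control, 7.70 and 7.66 with minoxidil, 7.60 and 7.60 with tieghemelin, and 7.19 and 8.01 under maslinic acid. Here too no treated array overlapped the controls, and maslinic acid array 1 was the lowest of the treated. Both control arrays below all 6 treated arrays was a pattern shared by 3 of the 10 genes, Per1, Per2 and Nr1d2, and by 9.15% of all probe sets.

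The control readings of Per1 and Per2 all lay below the background median of their array, so only a lower bound of the fold can be given. Per1 was also below that median on minoxidil array 1 (7.28 against 7.51) and close to it on tieghemelin array 2 (6.99 against 6.97). The background median itself was lower on every treated array than in control. For Per1 with maslinic acid it was at least 1.13-fold higher than control (at least 1.19-fold without control array 1), for Per2 with minoxidil at least 1.05-fold without control array 1, and in the other comparisons with control no bound above 1 could be given. The measured readings of Per1 differed from control by 1.46 ± 0.39 (SE) on the log2 scale with minoxidil, 1.19 ± 0.39 with tieghemelin and 1.75 ± 0.39 with maslinic acid, and those of Per2 by 1.46, 1.38 and 1.38, each ± 0.39. With all 8 arrays no limma adjusted p of either gene was under 0.41. The 2 control arrays lay 0.12 apart for Per1, a gap larger than that of only 7.87% of all probe sets, and 0.02 apart for Per2, and leaving out control array 1 gave nearly the same differences: 1.52, 1.25 and 1.81 for Per1 and 1.45, 1.37 and 1.37 for Per2. The lowest limma adjusted p among these was 0.132, for Per1 with maslinic acid.

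Per3, the third Period gene (chr4:150997018-151044707), did not follow. It read 7.80 and 7.87 in control, 7.10 and 7.91 with minoxidil, 7.38 and 7.09 with tieghemelin, and 7.53 and 7.29 under maslinic acid. All tieghemelin and maslinic acid arrays lay below the controls, and minoxidil array 2 lay above them. Both controls read little above their background medians (7.75 and 7.61), and minoxidil array 1 lay below its own (7.51). The background median was itself lower with tieghemelin (7.02 and 6.97) and maslinic acid (6.96 and 7.08) than in control. The difference from control was -0.33 ± 0.40 with minoxidil, -0.60 ± 0.40 with tieghemelin and -0.42 ± 0.40 with maslinic acid, with limma adjusted p of 0.712, 0.512 and 0.640. The differences were -0.37, -0.64 and -0.46 without control array 1, and without minoxidil array 1 the difference with minoxidil turned to 0.08.

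**Figure D1:**
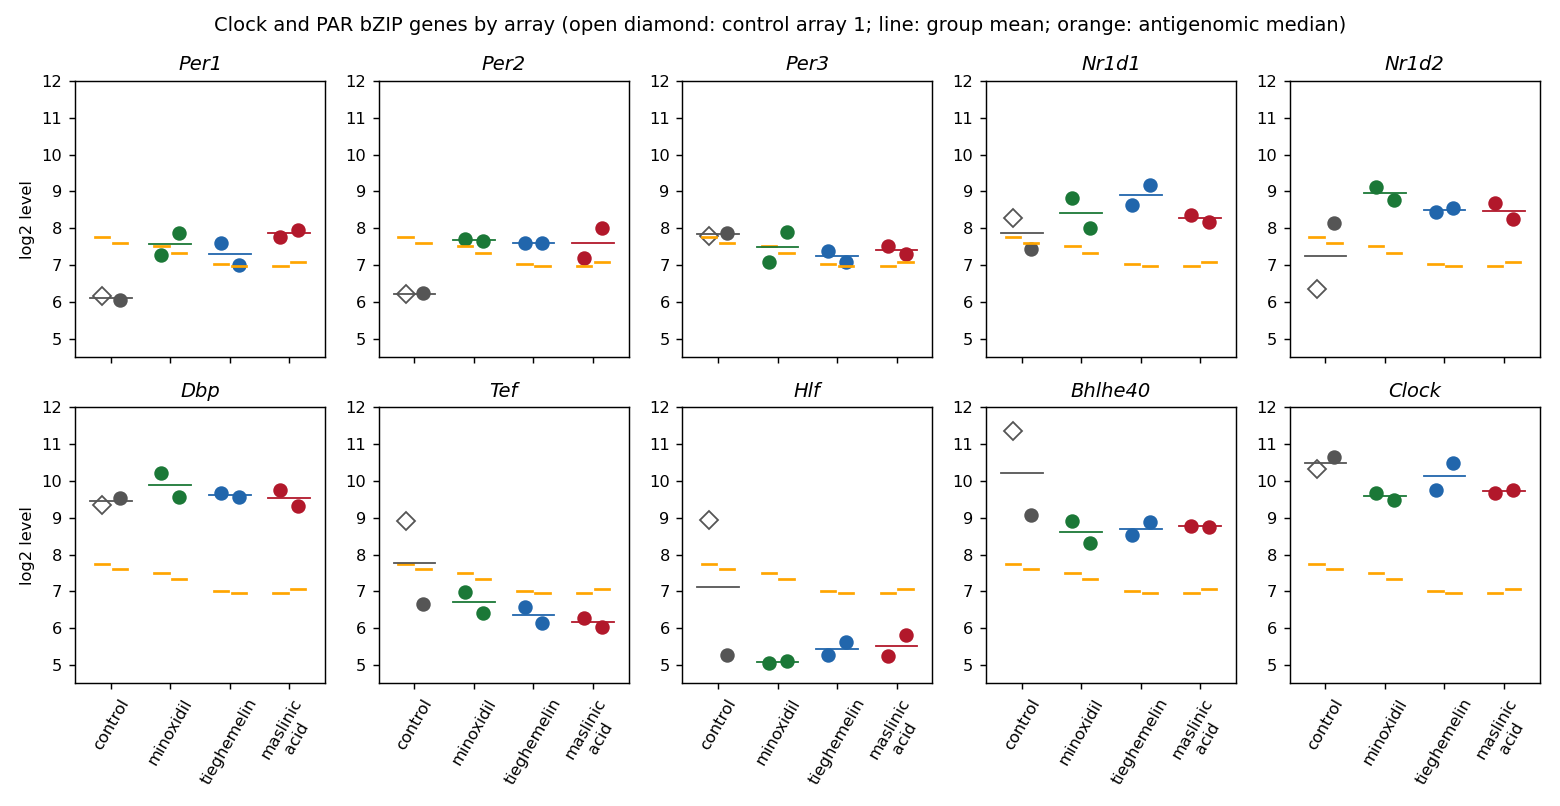
Log2 level of each of the 10 genes on every array, by group (2 arrays each). Points are arrays, the open diamond is control array 1, coloured lines are group means and orange dashes are the background median of each array, taken over 23 antigenomic probe sets. Per1 and Per2 read at 6.23 or lower on both control arrays and at 6.99 or more on every treated array, while control array 1 alone is high for Tef, Hlf and Bhlhe40.

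The REV-ERB receptors, nuclear receptors that repress Arntl, also read higher on average in each treated group, but the control arrays disagreed. Nr1d1 (chr11:98767932-98775377) read 8.29 and 7.43 in control, 8.82 and 8.02 with minoxidil, 8.63 and 9.17 with tieghemelin, and 8.36 and 8.18 under maslinic acid. Only the tieghemelin arrays were both above both controls; control array 1 lay inside the range of the other treatments. Nr1d1 differed from control by 0.56 ± 0.46, 1.03 ± 0.46 and 0.41 ± 0.46 with minoxidil, tieghemelin and maslinic acid. Without control array 1, whose Nr1d1 reading was 0.86 above the other control, the differences were 0.99, 1.46 and 0.84, with limma adjusted p of 0.369, 0.180 and 0.450. Control array 2 was below its background median for Nr1d1, so these are at least 1.75-fold, 2.43-fold and 1.58-fold higher. Without control array 2 instead, the difference with maslinic acid was -0.02.

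Nr1d2 (chr14:18204056-18239106) read 6.36 and 8.14 in control, 9.13 and 8.76 with minoxidil, 8.45 and 8.54 with tieghemelin, and 8.68 and 8.26 under maslinic acid. Every treated array exceeded both controls, but the lower maslinic acid array stood close to control array 2. With all arrays the differences were 1.70 ± 0.57, 1.25 ± 0.57 and 1.23 ± 0.57, with limma adjusted p of 0.440, 0.432 and 0.467. Without control array 1 they shrank to 0.81 ± 0.37, 0.36 ± 0.37 and 0.34 ± 0.37.

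The PAR bZIP factors, which carry the rhythm from the clock to output genes through D-boxes, showed no common direction. Dbp (chr7:45705100-45710203) read 9.36 and 9.55 in control, 10.21 and 9.56 with minoxidil, 9.67 and 9.58 with tieghemelin, and 9.77 and 9.33 under maslinic acid. Apart from minoxidil array 1, all arrays lay close together, and Dbp was above the background median on all 8. The differences were 0.43 ± 0.38, 0.17 ± 0.38 and 0.09 ± 0.38, with limma adjusted p of 0.618, 0.851 and 0.922. The 95% interval with tieghemelin ran from -0.72 to 1.05. Without control array 1 the differences were 0.33, 0.07 and -0.0012, so the sign with maslinic acid depended on that array.

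Tef (chr15:81802673-81826863) read 8.90 and 6.67 in control, 7.0 and 6.43 with minoxidil, 6.58 and 6.15 with tieghemelin, and 6.29 and 6.04 under maslinic acid. Hlf (chr11:90336535-90390917) read 8.95 and 5.29 in control, 5.05 and 5.11 with minoxidil, 5.27 and 5.63 with tieghemelin, and 5.25 and 5.80 under maslinic acid. For both genes control array 1 was the only array above its background median. The gap between the control arrays was 2.23 for Tef and 3.66 for Hlf, the latter larger than that of 97.6% of all probe sets. The differences from control with all arrays, -1.08, -1.42 and -1.62 (each ± 0.67) for Tef and -2.04, -1.67 and -1.59 (each ± 0.98) for Hlf, rested on that array: without it they were 0.04, -0.31 and -0.51 for Tef and -0.21, 0.16 and 0.24 for Hlf, between values at or below background on both sides, for which no fold is given. The limma adjusted p with all arrays was 0.495, 0.439 and 0.457 for Tef and 0.443, 0.475 and 0.513 for Hlf.

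Bhlhe40 (DEC1), an E-box repressor that also responds to hypoxia and differentiation signals, showed the same dependence at higher signal. Bhlhe40 (chr6:108660629-108666925) read 11.35 and 9.08 in control, 8.91 and 8.32 with minoxidil, 8.52 and 8.89 with tieghemelin, and 8.79 and 8.75 under maslinic acid. It was the only one of the 10 genes with both control arrays above all 6 treated arrays, a pattern of 6.93% of all probe sets. The differences of -1.60 ± 0.68, -1.51 ± 0.68 and -1.45 ± 0.68 had limma adjusted p of 0.442, 0.432 and 0.467, and became -0.46, -0.37 and -0.31 without control array 1.

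Clock (chr5:76209868-76305603), the activator, read 10.32 and 10.64 in control, 9.67 and 9.49 with minoxidil, 9.77 and 10.49 with tieghemelin, and 9.69 and 9.75 under maslinic acid. Minoxidil and maslinic acid arrays all lay below both controls, and tieghemelin array 2 lay between them. The differences from control were -0.90 ± 0.39, -0.35 ± 0.39 and -0.76 ± 0.39, and the control arrays agreed closely enough that leaving out array 1 gave -1.06, -0.51 and -0.92. The limma adjusted p was 0.442, 0.680 and 0.480 with all arrays and 0.303, 0.623 and 0.365 without control array 1. Without tieghemelin array 1 the tieghemelin difference was 0.01.

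**Figure D2:**
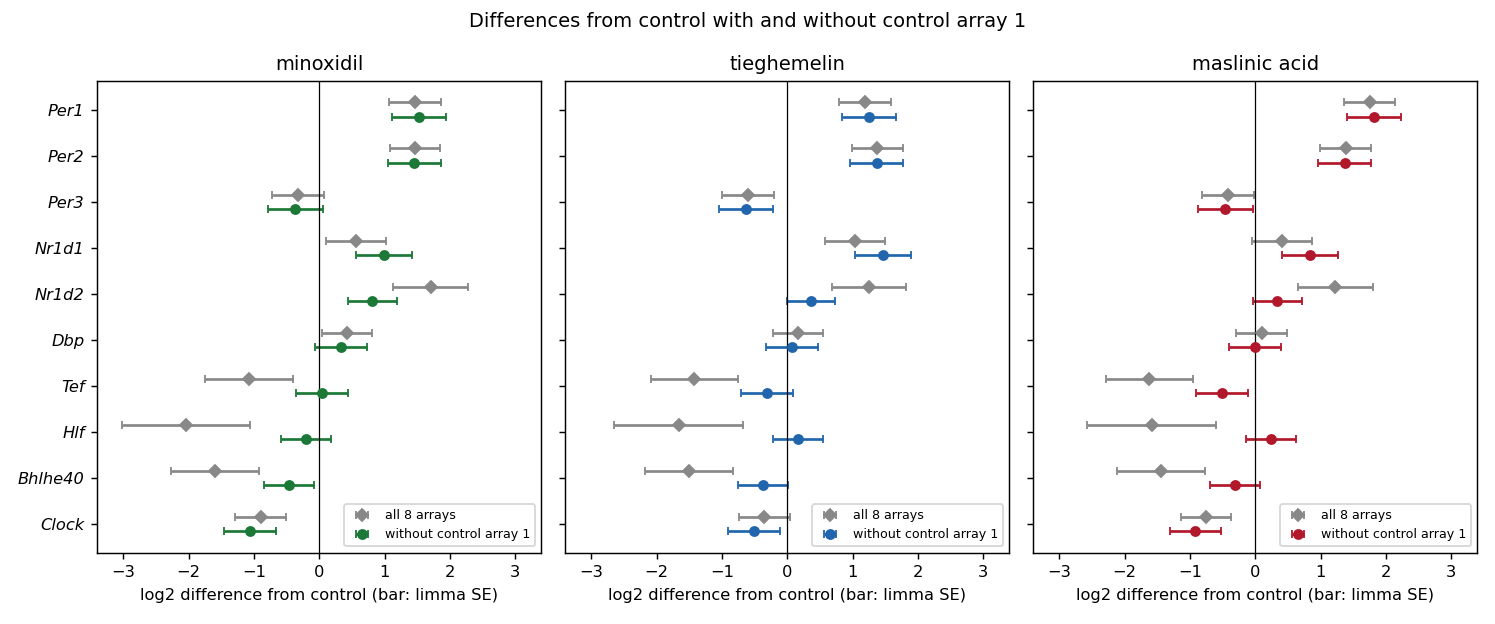
Log2 difference of each gene from control for minoxidil, tieghemelin and maslinic acid (limma estimate, bars are its SE), with all 8 arrays (grey diamonds) and without control array 1 (coloured circles). Per1, Per2, Per3, Dbp and Clock hardly moved when the array was left out, whereas Nr1d2, Tef, Hlf and Bhlhe40 came closer to 0 and Nr1d1 moved away from it.

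No gene of the 10 passed an adjusted p under 0.05 in limma in any of the 3 comparisons with control, and the share of all probe sets that did was 0% in each. Of the 10 genes, 5, 2 and 3 had an unadjusted p under 0.05 with minoxidil, tieghemelin and maslinic acid, beside 11.3%, 11.7% and 10.8% of all probe sets. With control array 1 left out it was 4, 3 and 3 genes, beside 12.9%, 13.8% and 12.8%. The study's own thresholds, from its design text, were a fold of 1.7 or more together with an unadjusted p of 0.05 or less. With minoxidil the genes at those thresholds were Per1, Per2 and Nr1d2 on the higher side, where 6.98% of all probe sets were called, and Bhlhe40 and Clock on the lower side, where 4.29% were. Tieghemelin had Per1 and Per2 higher (background 7.02%) and none of the 10 lower (background 4.73%). Maslinic acid had Per1 and Per2 higher (background 6.39%) and Tef lower (background 4.45%). These 3 comparisons share the same control arrays and are not independent of one another.

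Without control array 1, Per1, Per2 and Nr1d1 passed these thresholds on the higher side with minoxidil (background 6.53%) and with tieghemelin (background 6.63%), and Per1 and Per2 with maslinic acid (background 6.21%). On the lower side Clock passed with minoxidil (background 6.38%) and with maslinic acid (background 6.57%), and none of the 10 with tieghemelin (background 7.12%). Per1 and Per2 were thus called higher in each comparison with and without that array, on readings whose control side was below background. Without control array 2, which left control array 1 as the only control, 6, 5 and 6 of the 10 genes had a limma adjusted p under 0.05, beside 8363, 8427 and 8282 of all probe sets. The median difference of the 10 genes was 0.05 with minoxidil, -0.09 with tieghemelin and -0.16 with maslinic acid, against 0.06, 0.05 and 0.05 over all probe sets. The medians of the 10 genes without control array 1 were 0.19, 0.12 and 0.12, so their sign with tieghemelin and maslinic acid turned, against 0.04, 0.02 and 0.01 over all probe sets.

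The labels give no sampling time, and a shift in it would move genes of opposite phase in opposite directions, so genes of both phases were set side by side. On one side stood the 9 members other than Clock with Ciart, Bhlhe41, Usp2, Wee1 and Nampt, which in most tissues peak at about the same time as Per1 to Dbp; on the other stood Clock, Arntl, Npas2, Nfil3 and Cry1. Of the 14 genes of the first kind, 5, 7 and 8 read higher than control with minoxidil, tieghemelin and maslinic acid (7, 7 and 8 without control array 1). Of the 5 of the opposite phase, 3, 2 and 2 read lower (4, 3 and 3 without control array 1). Neither set lay wholly on one side of control in any comparison. Tef and Hlf are counted here, though both lay below the background median on every array except control array 1. Npas2 lay below it on both control arrays. A shift in sampling time was not tested. With all arrays 0 of these 19 genes had a limma adjusted p under 0.05, beside 0% of all probe sets. An unadjusted p under 0.05 was reached by 4, 3 and 4 of the 14 and by 1, 1 and 1 of the 5, beside 11.3%, 11.7% and 10.8% of all probe sets. It was reached without control array 1 by 3, 4 and 3 of the 14 and by 1, 0 and 2 of the 5, beside 12.9%, 13.8% and 12.8%.

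Within the first kind, Nampt read on the other side of control from Per1 and Per2. Nampt, which encodes the rate-limiting enzyme of NAD salvage and is a target of CLOCK and ARNTL, read 8.29 and 8.74 in control, 7.90 and 7.62 with minoxidil, 6.97 and 8.00 with tieghemelin, and 7.24 and 7.13 under maslinic acid. Every treated array lay below both controls. Its differences were -0.75 ± 0.44, -1.03 ± 0.44 and -1.33 ± 0.44, with limma adjusted p of 0.478, 0.424 and 0.448, and without control array 1 they were -0.97, -1.25 and -1.55. Ciart (CHRONO), a repressor that in other tissues swings widely with the Period genes, read 8.04 and 8.81 in control, 7.0 and 8.46 with minoxidil, 8.64 and 8.59 with tieghemelin, and 8.44 and 9.20 under maslinic acid. It differed from control by -0.70, 0.19 and 0.40 with all arrays and by -1.08, -0.20 and 0.01 without control array 1, so its sign with tieghemelin depended on that array.

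Among the genes of the opposite phase, Arntl, the partner of CLOCK, read 8.48 and 8.36 in control, 7.90 and 8.23 with minoxidil, 7.32 and 8.34 with tieghemelin, and 8.59 and 7.95 under maslinic acid. Its differences of -0.36, -0.59 and -0.15 (each ± 0.45) had limma adjusted p of 0.731, 0.563 and 0.893, and were -0.29, -0.52 and -0.09 without control array 1. Npas2, which can stand in for CLOCK, read 6.67 and 7.23 in control, 6.42 and 7.28 with minoxidil, 7.82 and 8.55 with tieghemelin, and 7.38 and 8.22 under maslinic acid. All 4 arrays of tieghemelin and maslinic acid were above both controls, that is on the same side as Per1 and Per2, at least 1.42-fold higher with tieghemelin and 1.08-fold with maslinic acid because Npas2 was below background in control. Its measured differences were -0.10, 1.23 and 0.85 with all arrays and -0.38, 0.96 and 0.57 without control array 1. Cry1, a repressor whose peak is delayed, read 8.01 and 8.25 in control, 8.00 and 8.29 with minoxidil, 8.75 and 8.96 with tieghemelin, and 8.98 and 9.24 under maslinic acid. Its differences were 0.01 ± 0.35, 0.72 ± 0.35 and 0.98 ± 0.35, with limma adjusted p of 0.994, 0.444 and 0.448. Without control array 1 they were -0.11, 0.60 and 0.86. Nfil3, the D-box repressor, differed by 1.18, 0.35 and 0.48 with all arrays and by 0.30, -0.53 and -0.40 without control array 1, so its sign with tieghemelin and maslinic acid depended on that array.

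**Figure D3:**
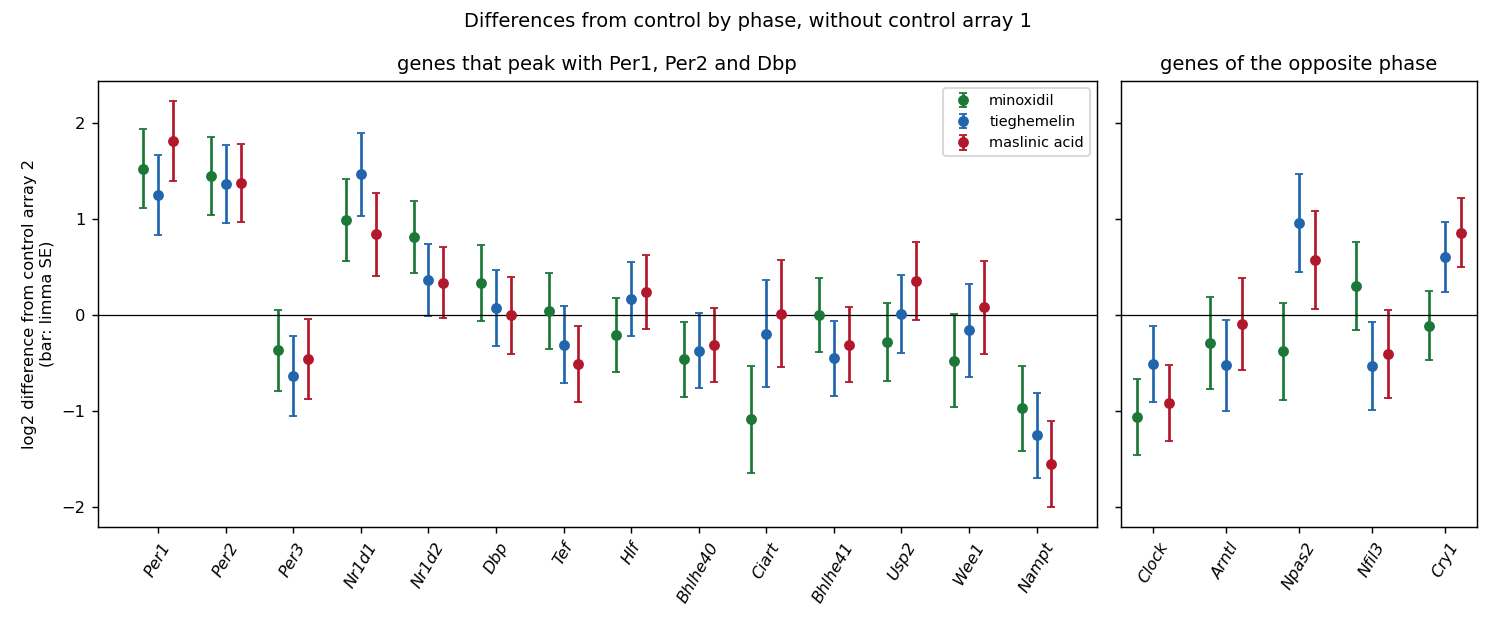
Log2 difference from control array 2 (control array 1 left out; bars are limma SE) for 14 genes that peak with Per1, Per2 and Dbp (left panel) and 5 genes of the opposite phase (right panel), for minoxidil (green), tieghemelin (blue) and maslinic acid (red). Per1, Per2 and Nr1d1 lie above 0 and Nampt below it in the left panel, and in the right panel Clock lies below 0 while Npas2 and Cry1 lie above it for tieghemelin and maslinic acid.

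A further 9 clock genes, among them ROR receptors that activate Arntl, were measured by 12 probe sets. With minoxidil 5 read higher and 7 lower, with tieghemelin 5 and 7, and with maslinic acid 6 and 6. The counts without control array 1 were 9 higher and 3 lower, 7 and 5, and 7 and 5. With all arrays 0 had a limma adjusted p under 0.05, and 3, 0 and 2 an unadjusted p under 0.05, beside 11.3%, 11.7% and 10.8% of all probe sets. Leaving out control array 1 made the latter counts 3, 2 and 1, beside 12.9%, 13.8% and 12.8%. The 3 probe sets of Rora did not agree, and the identifiers of all but the last given here mark them as unmapped. One differed from control by -1.23, -0.84 and -0.96 with minoxidil, tieghemelin and maslinic acid (-1.46, -1.07 and -1.19 without control array 1). Another differed by 0.25, 0.31 and 0.65 (0.15, 0.20 and 0.55), and the remaining one by -0.47, -0.52 and -0.48, which turned to 0.27, 0.22 and 0.26. Per1 is also a direct target of the glucocorticoid receptor and responds like an immediate early gene, so 9 genes of each kind were read as well. Klf9, which both the receptor and the clock drive, read 7.71 and 8.19 in control, 9.22 and 8.72 with minoxidil, 8.25 and 8.76 with tieghemelin, and 8.94 and 8.69 under maslinic acid. Like Per1 it was above both controls on every treated array, by 1.02, 0.56 and 0.87 (limma adjusted p 0.440, 0.537 and 0.465), and by 0.78, 0.31 and 0.62 without control array 1. Fkbp5, a standard glucocorticoid target, did not: it read 7.76 and 10.99 in control and between 9.30 and 11.08 on the treated arrays. It differed by 0.29, 0.52 and 1.40 with all arrays and by -1.33, -1.09 and -0.22 without control array 1, so its sign depended on that array. Of the 9 glucocorticoid-responsive genes 4, 6 and 6 read higher (3, 4 and 5 without control array 1), and of the 9 immediate early genes 3, 3 and 3 did (4, 3 and 3). Fos differed by -1.23, -1.28 and -0.97, and without control array 1 by -0.41, -0.46 and -0.15. Fosb went the other way, by 1.22 with tieghemelin and 1.06 with maslinic acid, from control readings of 7.54 and 9.06.

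The treatments were also compared with one another, without any control array. In the fit on the 6 treated arrays none of the 10 passed the thresholds of the study in any pair, against a background of 10.4% for tieghemelin minus minoxidil, 11.1% for maslinic acid minus minoxidil and 1.56% for tieghemelin minus maslinic acid. No probe set passed an adjusted p under 0.05 there (0% in each), while 2845, 3024 and 507 had an unadjusted p under 0.05. Every 95% interval of the 10 genes held 0. For Per1, where the order of the group means was maslinic acid, minoxidil, tieghemelin and control, the difference between tieghemelin and maslinic acid was -0.56 (95% interval -1.31 to 0.19). For Per2 it was -0.01 (-0.74 to 0.73), for Nr1d1 0.62 (-0.15 to 1.40), for Dbp 0.07 (-0.65 to 0.80) and for Clock 0.41 (-0.31 to 1.12). Intervals of this width do not show that the treatments act alike. Larger differences were measured for clock genes of both phases outside the 10. Of the opposite phase, Cry1 read 0.97 ± 0.29 above minoxidil with maslinic acid (limma adjusted p 0.238). Npas2 read 1.34 ± 0.41 above it with tieghemelin (limma adjusted p 0.259). Both minoxidil arrays lay below their background median for Npas2, so 1.34 is not a measure of its fold. Ciart, which peaks with Per1, read 1.09 above minoxidil with maslinic acid and 0.89 above it with tieghemelin. The minoxidil arrays read 7.0 and 8.46 for Ciart, the former below its background median (7.51), and maslinic acid array 1 read 8.44. Of the 14 genes that peak with Per1, 6 read higher and 8 lower in each pair with minoxidil.

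Skeletal muscle has a clock of its own, and its markers differed between the groups. The mean log2 level of 22 muscle markers was 11.40 and 13.31 on the control arrays, 10.63 and 10.08 with minoxidil, 8.85 and 8.54 with tieghemelin, and 11.17 and 9.02 under maslinic acid. In each comparison with control 21 of the 22 read lower (22 of 22 without control array 1), and 19 to 22 of them were above the background median on every array. The control arrays had the highest muscle levels and the lowest Per1 and Per2 readings. Within maslinic acid the array with 11.17 read 7.77 for Per1 and that with 9.02 read 7.96. Per2 read 7.19 and 8.01 on the same arrays. Control array 1, at 11.40, read 6.17 for Per1 and 6.21 for Per2. Over all probe sets it correlated at only 0.518 to 0.538 with the other arrays, so it cannot serve as a control matched for muscle. Markers of other cell types differed as well. Without control array 1 all 6 fibroblast markers read lower with each treatment, with medians of -1.35, -1.20 and -1.05. Of 7 basal keratinocyte markers 6, 5 and 5 read lower, with medians of -1.12, -1.59 and -1.47. With all arrays 5, 5 and 4 of the fibroblast and 4, 4 and 3 of the basal keratinocyte markers read lower. The part of muscle or other cell content in the clock gene readings was not tested. In bulk tissue, fewer cells of a type and less RNA per cell cannot be told apart.

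**Figure D4:**
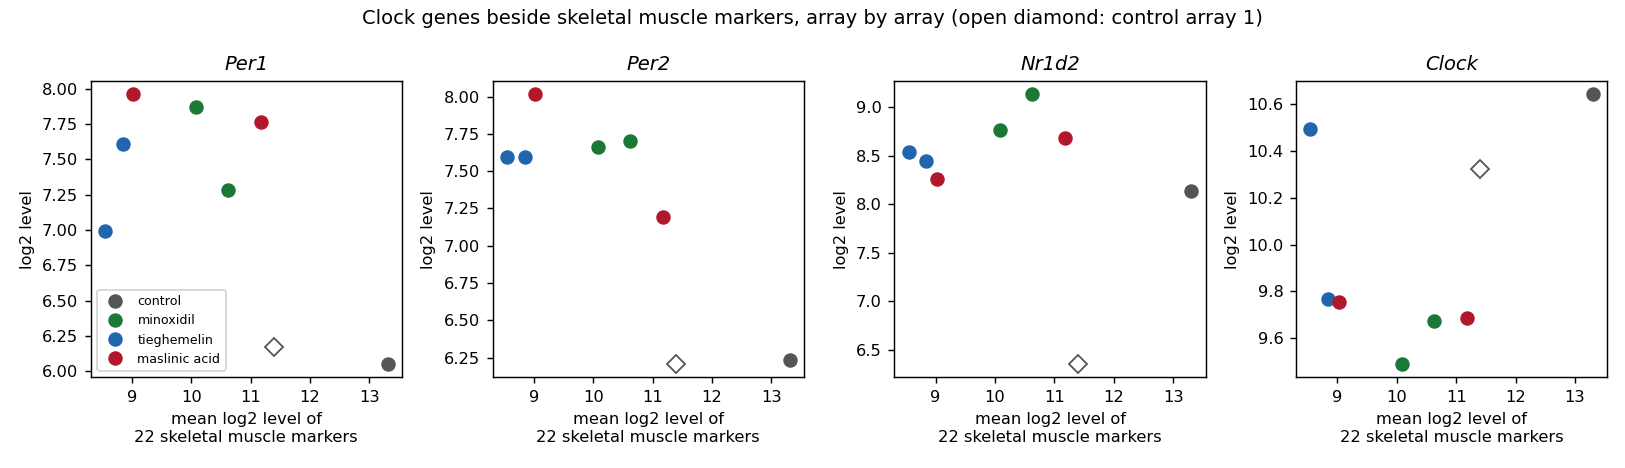
Log2 level of Per1, Per2, Nr1d2 and Clock (vertical axes) against the mean log2 level of 22 skeletal muscle markers (horizontal axes), 1 point per array, with control array 1 as an open diamond. Control array 1 (muscle mean 11.40) read 6.17 for Per1 and 6.21 for Per2, and maslinic acid array 1 (11.17) read 7.77 and 7.19. Over all probe sets control array 1 correlated at only 0.518 to 0.538 with the other arrays, so it is not a control matched for muscle.

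The mean centred profile of Per1, Per2, Per3, Nr1d1, Nr1d2, Dbp, Tef and Hlf over the 7 arrays other than control array 1 was -0.43 on control array 2 and between 0.01 and 0.20 on the treated arrays, with minoxidil array 1 highest. Of 15603 probe sets with an SD of at least 0.3 over these arrays, 29 had r above 0.95 with this profile. Among those with 1 symbol, and apart from the genes followed here, the closest were Pole2 (r = 0.988), Olfr923 (0.987), Slf1 (0.987), Kdr (0.985) and Cyp4a10 (0.982). Pole2, a DNA polymerase epsilon subunit, read 6.29 on control array 2 and between 7.47 and 8.29 on the treated arrays. The 7 points share that single control array.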

How the data were processed

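Dorsal skin RNA was measured on 8 Clariom S Mouse arrays, 2 per group. The authors normalised the scans in Transcriptome Analysis Console 4.0.1, per the labels' design text; the submitters' processing notes also name RMA and Affymetrix Expression Console. The range of the deposited values is that of a log2 scale, with array medians between 7.96 and 8.06. RMA is meant to make the arrays' distributions alike, which removes shifts in total signal. Over probe sets that were not controls the SD was still 1.32 on control array 1 and 1.62 to 1.69 on the others. Renewed quantile normalization moved the difference of Bhlhe40 with minoxidil from -1.60 to -2.74. The genome build behind the probe sets was not given in the sources used here, and the number of arrays limits precision.

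Groups came from the labels. Control probe sets (6640) were left out, and 22206 were tested unscaled with limma 3.58.1 in R 4.3.3 (lmFit, eBayes, Benjamini-Hochberg over all 22206). Comparisons with control used all 8 arrays (4 residual degrees of freedom), and pairs of treatments the 6 treated arrays (3); without control array 1, 7 arrays also left 3. An exact permutation test of 2 arrays against 2 cannot give a 2-sided p below 0.33. An "at least" fold sets each array of a group that is wholly at or below background to the higher of its value and its background median.

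All 10 genes are named, with up to 4 genes per other list and comparison by absolute difference. The 5 closest profiles by Pearson r among probe sets with an SD of at least 0.3 are named too. Cry1, Npas2, Arntl, Nfil3, Nampt, Ciart, Rora, Klf9, Fkbp5, Fos and Fosb were taken up from these lists. The members and lists were chosen with earlier results of these data known. The code was tested on simulated data. Alternatives were a replicate block, brighter probe sets alone, quantile normalization, a common median, trended robust eBayes, other sets of arrays in the fit and leaving out each array.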

Additional observations from a re-analysis of the deposited data

How the results depend on the processing

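Over the alternatives, 0 of the 10 genes had a limma adjusted p under 0.05 except without control array 2, where 6, 5 and 6 did with minoxidil, tieghemelin and maslinic acid; leaving out an array otherwise gave 0. Among brighter probe sets alone, where Per1 and Per2 are not tested, 1, 0 and 0 genes reached the study's thresholds. Of all 11103 brighter probe sets 1265, 1346 and 1219 did. With minoxidil and control fitted alone, 2 genes reached them, beside 683 of 22206 probe sets. Counts at these thresholds also varied when single arrays were left out, but such a fit leaves 1 array in a group, so they are not given. The replicate numbers of the labels do not pair the arrays (correlations of same-numbered deviations between -0.17 and 0.09). With the number as a replicate block the count at the study's thresholds for tieghemelin was 4, beside 2565 of 22206 probe sets. Apart from fits without single arrays, no other count at these thresholds left 1.5 times its value. Crossed numbers for tieghemelin minus maslinic acid (added after seeing the data) gave 0 genes. Among brighter probe sets the genes that peak with Per1 and read higher numbered 3 with minoxidil, 5 with maslinic acid, 3 for maslinic acid minus minoxidil and 3 for tieghemelin minus maslinic acid, since fewer genes are tested there. Without single arrays that number was 5 to 8 with minoxidil, and opposite-phase genes that read lower numbered 1 to 3 with tieghemelin, 1 to 3 with maslinic acid, 1 to 2 for tieghemelin minus minoxidil and 1 to 2 for maslinic acid minus minoxidil. The median of the genes for tieghemelin minus minoxidil was 0.092 among brighter probe sets and -0.20 to -0.00038 without single arrays; for tieghemelin minus maslinic acid it was 0.074 and -0.016 to 0.095.

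Signs that turned with single arrays left out are these. The difference with minoxidil ranged over -0.74 to 0.077 for Per3 and over -2.19 to 0.040 for Tef. With tieghemelin, Hlf ranged over -3.50 to 0.16 and Clock over -0.71 to 0.013. With maslinic acid, Nr1d1 ranged over -0.021 to 0.84, Dbp over -0.12 to 0.31 (and -0.019 under quantile normalization) and Hlf over -3.42 to 0.24. For tieghemelin minus minoxidil, Per1 ranged over -0.58 to 0.036, Per3 over -0.68 to 0.14, Dbp over -0.58 to 0.061 and Bhlhe40 over -0.20 to 0.39. For maslinic acid minus minoxidil, Per1 ranged over -0.0076 to 0.58, Per2 over -0.49 to 0.33, Per3 over -0.50 to 0.32, Nr1d1 over -0.55 to 0.25 and Bhlhe40 over -0.14 to 0.45. For tieghemelin minus maslinic acid, Per2 ranged over -0.42 to 0.41, Nr1d2 over -0.19 to 0.23, Dbp over -0.14 to 0.29, Tef over -0.016 to 0.42, Hlf over -0.35 to 0.20 and Bhlhe40 over -0.24 to 0.12. Per1 and Per2 kept their sign against control under every alternative that tested them. The cause of these shifts was not tested. Signal limits Per1, Per2, Nr1d1, Tef and Hlf, whose readings lay at or below background on control array 2. Per3 read little above background on both control arrays.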
